A study of Mus musculus with 30 samples.

Results

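The genes described here carry the signal of interleukin-10 (IL-10) and interleukin-6 (IL-6) into the cell and end it again: the receptor chains Il10ra, Il10rb and Il6ra, the kinase Jak1, the transcription factor Stat3, and the inhibitors Socs1 and Socs3. They were followed through 10 lists of chromatin regions from mouse microglia, the resident macrophages of the brain. A region was taken for a gene if it overlapped the RefSeq span of the gene extended by 10 kb, or if an end of the gene was the nearest protein-coding gene end to its midpoint, within 100 kb. By this rule 34 of the 22399 listed regions belonged to these 7 of 21887 protein-coding genes, and each of the 7 had at least 1.

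The assay was CUT&Tag: a transposase, tethered to an antibody, cuts the chromatin where the antibody's target sits. The knockout mice were Mir137 loxP/loxP;Tmem119-CreERT2 (cKO), in which tamoxifen lets Cre remove Mir137, and the control mice were Mir137 +/+;Tmem119-CreERT2 (cWT). Both carried the same Cre, driven from the microglial gene Tmem119, both received tamoxifen on 7 consecutive days at 7 to 8 weeks of age, and both are labelled C57BL/6J brain at 8 weeks. The labels give 3 replicates for each genotype and each of 5 antibodies, 30 samples in 10 groups. The antibodies recognised 2 histone marks, H3K27ac of active promoters and enhancers and H3K4me3 of promoters, RNA polymerase II (Pol II), its form phosphorylated at serine 5 of the tail (Pol II Ser5P), found near gene starts, and Pu.1, a myeloid transcription factor. For each antibody the files hold 1 list of regions specific to cKO and 1 specific to cWT, so a value per replicate could not be given, no difference was tested over mice, and every comparison below is a description of lists. Read depth is unknown.

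IL-10 binds Il10ra, which pairs with Il10rb, and IL-6 binds Il6ra, which pairs with the signalling chain Il6st. Jak1 sits on these receptors and phosphorylates Stat3, which then enters the nucleus and switches on its targets, Socs3 among them. Socs1 blocks Jak kinases, and Socs3 shuts down the Il6st receptor while leaving IL-10 signalling largely intact, and in microglia and other macrophages IL-10 acting through Stat3 restrains inflammatory genes.

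The microRNA deleted in cKO, miR-137, is shown because its loss defines the groups. It is given as RefSeq holds it (GRCm38.p6, chr3:118433901-118433923, plus strand), with its seed, bases 2 to 8, in capitals.
mmu-miR-137-3p: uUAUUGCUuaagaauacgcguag
The seed pairs with transcripts, and whether transcripts of the 7 genes hold a match was not analysed here. No listed region lay within 10 kb of Mir137 itself, so the lists gave no reading of the deletion.

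Of the 34 regions, 27 stood in cKO lists and 7 in cWT lists. For H3K27ac, 0 of the 6 regions were in the cKO list and 6 in the cWT list (0%, exact Clopper-Pearson 95% interval 0 to 45.9%), and over all H3K27ac regions 10.8% were in the cKO list. All 9 Pol II regions were in the cKO list (100%, exact interval 66.4 to 100%), against 92.2% of all Pol II regions. Of the Ser5P regions, 13 were in the cKO list and 1 in the cWT list (92.9%, exact interval 66.1 to 99.8%), against 98% of all Ser5P regions. All 3 Pu.1 regions (exact interval 29.2 to 100%; 95.9% of all Pu.1 regions) and both H3K4me3 regions (exact interval 15.8 to 100%; 61.5% of all H3K4me3 regions) were in the cKO lists. The genes lay in the direction of the whole list for each antibody, and each whole-list share fell inside the interval of the 7 genes. The intervals cover the counting of regions only. They treat regions as independent, though some adjoin each other and Il10ra alone holds 4 of the 9 Pol II regions. Counts this small give wide intervals that would hold many other shares too, so they are no test of likeness.

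**Figure D1:**
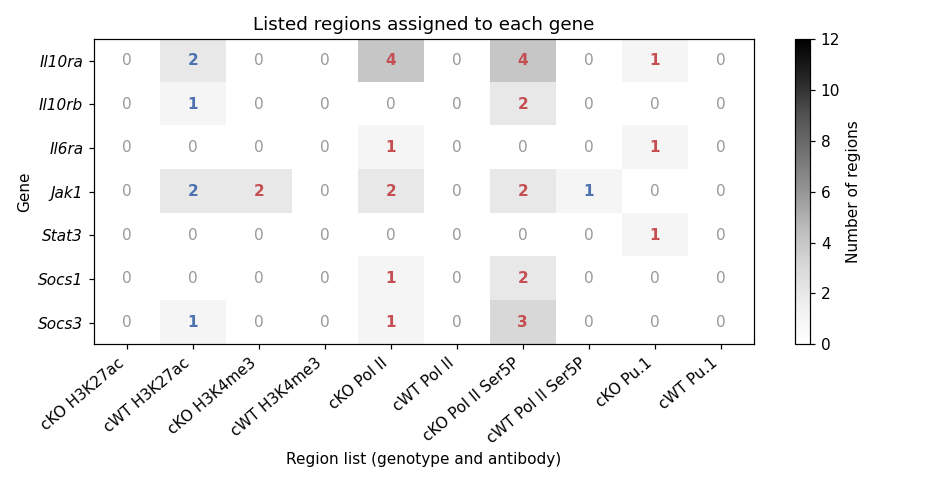
Number of listed regions for each gene (rows) in each list (columns, cKO left of cWT for each antibody); numbers in red belong to cKO lists and numbers in blue to cWT lists. Il10ra and Jak1 hold most regions, with 11 and 9, and the H3K27ac entries are all in the cWT column while the Pol II and Pu.1 entries are all in the cKO columns.

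Read by gene, the cKO Pol II list held 5 of the 7 genes (22.4% of all protein-coding genes), the cKO Ser5P list also 5 (27.9%), the cKO Pu.1 list 3 (4.96%) and the cKO H3K4me3 list 1, Jak1 (8.47%). The cWT H3K27ac list held 4 (26.1%), and the cWT Ser5P list held 1, again Jak1 (0.722%). The cKO Pol II count depended on the setting. It was 4 genes with the nearest end alone or with spans extended by 10 kb alone, and 1 gene with gene spans alone. The Pol II region at the Socs1 start lay 5 bp outside the span. With regions above the middle of the list by p the count was 2 genes. The share of all genes under these settings is not given here. With spans alone, and above the middle of the list, the cKO H3K4me3 and cWT Ser5P lists held 0 of the 7. None of the 7 had a region in the cKO H3K27ac list (4.31% of all genes) or in the cWT lists of H3K4me3 (5.62%), Pol II (2.16%) and Pu.1 (0.187%). Every one of the 7 had a region somewhere, as did 49.6% of all protein-coding genes. The comparison with all genes includes genes that microglia do not use, and the 7 genes were chosen with earlier results of these data known, so the shares describe where regions lay and are no test.

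**Figure D2:**
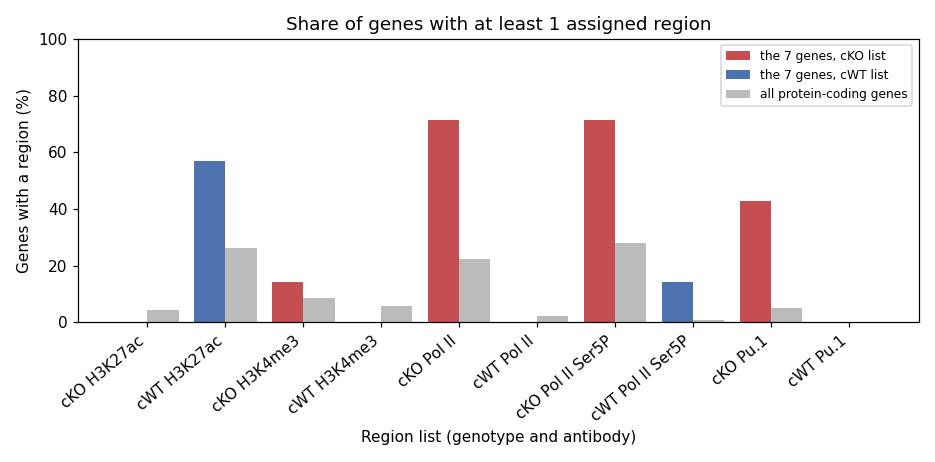
Share of genes with at least 1 region in each list: coloured bars are the 7 genes (red for cKO lists, blue for cWT lists) and grey bars all 21887 protein-coding genes. In the cKO Pol II and cKO Ser5P lists 71.4% of the 7 genes had a region, and in the cWT H3K27ac list 57.1%. The cKO Pol II bar stands for 5 genes, against 4 with spans extended by 10 kb alone and 1 gene with spans alone.

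Il10ra, the chain that binds IL-10, had more regions than the other genes, 9 in cKO lists and 2 in cWT lists (gene at chromosome 9, 45253837 to 45269149, mm10). At least 11 regions were found for 0.772% of protein-coding genes. A cKO Ser5P region, at 45268872 to 45269146, lay on the higher-coordinate end of the gene. Past that end stood a row of regions. The first pair, a cKO Pol II region at 45272246 to 45272440 and a cKO Ser5P region at 45272445 to 45272634, lay side by side with 4 bp between them. The second pair, at 45274515 to 45274824 (cKO Pol II) and 45274554 to 45274800 (cKO Ser5P), overlapped over the whole Ser5P region. A cWT H3K27ac region, at 45274813 to 45275368, began where these ended and shared 12 bp with the Pol II region and none with the Ser5P region. A further cKO Pol II region lay 11.55 kb past the end, at 45280703 to 45281080.

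The other cWT H3K27ac region of Il10ra was inside the gene, at 45254740 to 45255079, near its lower-coordinate end. Beyond that end, 3 cKO regions reached Il10ra through the extended span alone, and all 3 lay within the neighbouring gene BC049352. Among them a cKO Pu.1 region, at 45246033 to 45246469, fell wholly inside a cKO Ser5P region, at 45245993 to 45246519. This was the only Pu.1 region of the 7 genes that overlapped a listed polymerase region. By the deposited p-value the Pu.1 region ranked 124th of 1017 in its list. The H3K27ac region inside Il10ra ranked 6736th of 6995, near the bottom of its list.

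**Figure D3:**
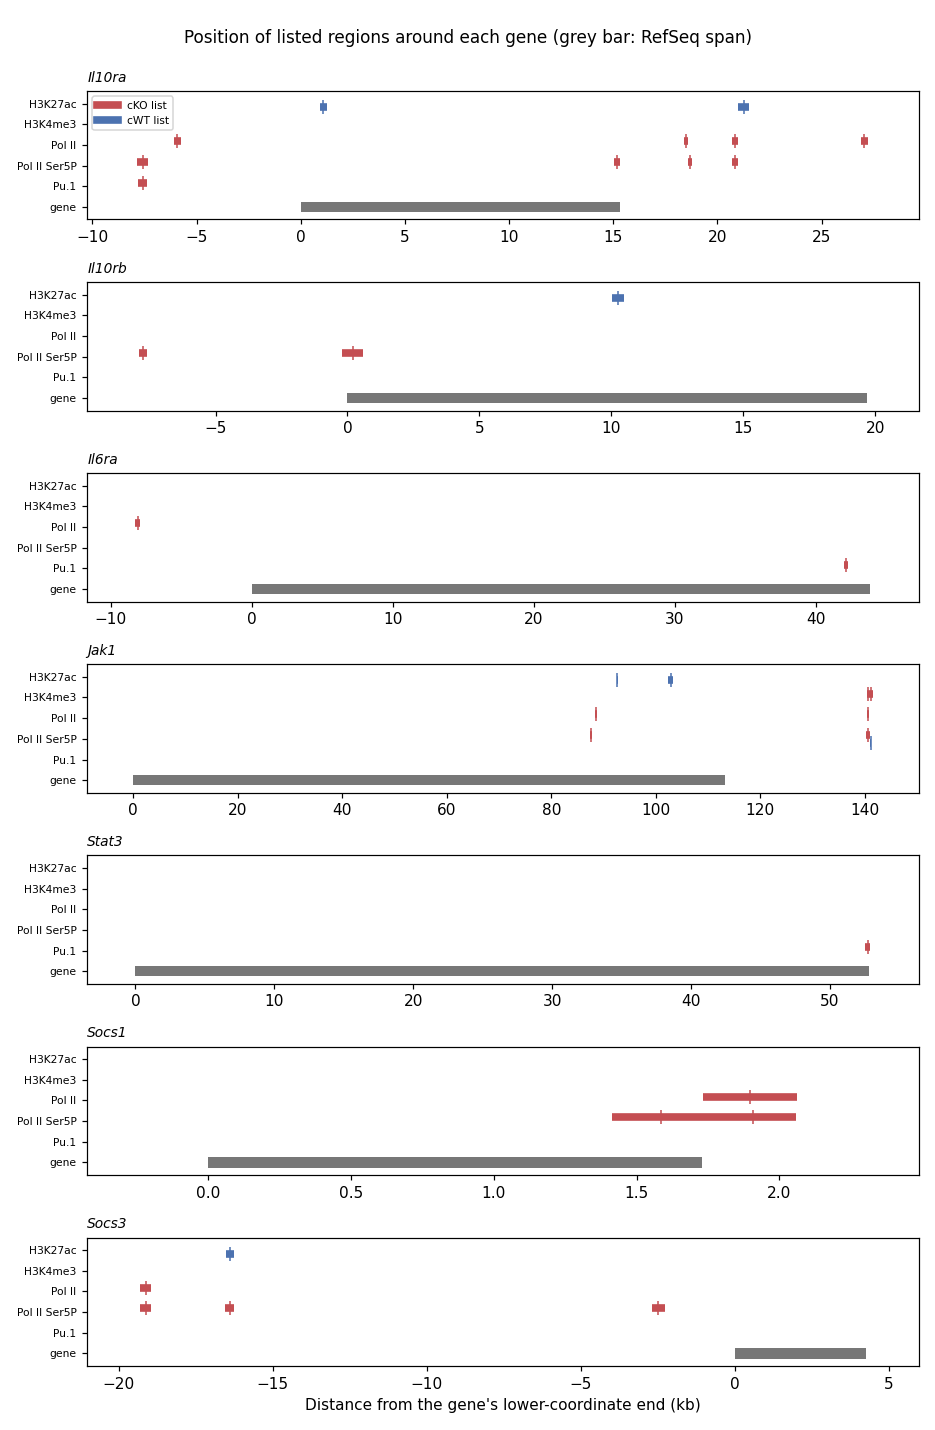
Listed regions around each of the 7 genes, drawn to scale as distance in kb from the lower-coordinate end of the gene (grey bar: RefSeq span); red bars are regions of cKO lists, blue bars regions of cWT lists, with a thin tick at each midpoint, and rows are antibodies. Socs1 regions sit on its start, the 5 Socs3 regions all sit outside the gene, and 5 of the 9 Jak1 regions form a cluster upstream of its start, drawn on the right because Jak1 lies on the minus strand.

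Il10rb, the second chain of the IL-10 receptor, is shared with the receptors of IL-22 and of the lambda interferons. It had 2 regions in cKO lists and 1 in a cWT list (gene at chromosome 16, 91406157 to 91425834). A cKO Ser5P region of 803 bp, at 91405955 to 91406757, lay across the lower-coordinate end of the gene. The cWT H3K27ac region, at 91416188 to 91416647, was inside the gene and ranked 307th of 6995 in its list, the highest place of any H3K27ac region of these genes. The second Ser5P region, at 91398249 to 91398544, was within the neighbour Ifnar2, whose end lies nearer to it.

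Il10rb stands among the interferon receptor genes Ifnar2, Ifnar1 and Ifngr2, chains of the receptors for type I and type II interferon. From 10 kb before Ifnar2 to 10 kb past Ifngr2 the lists held 20 distinct regions, 18 in cKO lists and 2 in the cWT H3K27ac list. The cKO regions were 9 of Ser5P, 5 of Pol II and 4 of Pu.1. Over all listed regions, 98% of Ser5P, 92.2% of Pol II and 95.9% of Pu.1 regions were in cKO lists. For H3K27ac it was 10.8%, so the split by genotype here lay in the direction of the whole lists. None of the 4 Pu.1 regions was near Il10rb: they lay at Ifnar1, at Ifngr2 and between the pair. Of the 20 regions 2 lay in Il10rb, 5 in Ifnar2, 1 in Ifnar1 and 4 in Ifngr2. Ifnar2 had 8 regions by the assignment rule, Ifnar1 7 and Ifngr2 6, all in cKO lists but 1 H3K27ac region of Ifnar1. The 8 of Ifnar2 include regions outside this stretch, its 1 Pu.1 region among them. Neighbours share some regions through the extended span.

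**Figure D4:**
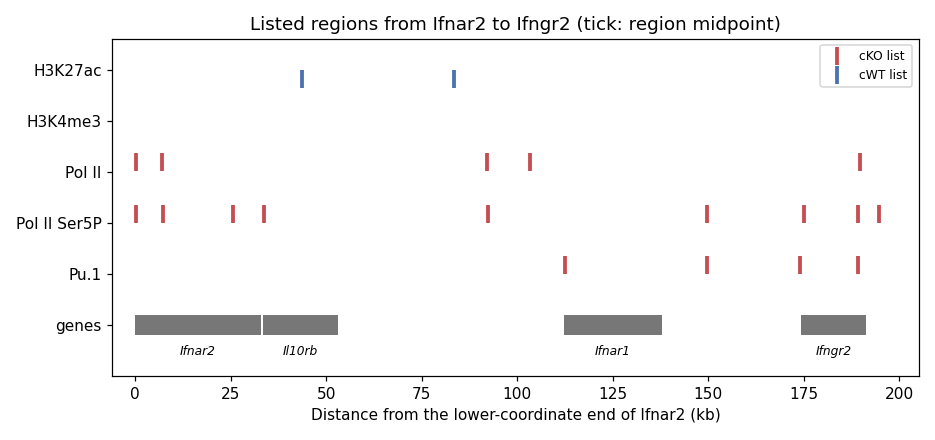
Midpoints of the 20 listed regions from Ifnar2 to Ifngr2, as distance in kb from the lower-coordinate end of Ifnar2, by antibody (rows); red ticks are cKO lists, blue ticks cWT lists, and grey bars are the 4 receptor genes. The 2 blue ticks are H3K27ac, 1 of them inside Il10rb, and every polymerase and Pu.1 tick is red. Over all listed regions 92.2% of Pol II, 98% of Ser5P, 95.9% of Pu.1 and 10.8% of H3K27ac regions are in cKO lists.

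Il6ra, the chain that binds IL-6, had 2 regions, both in cKO lists (gene at chromosome 3, 89869324 to 89913196). A cKO Pu.1 region, at 89911349 to 89911600, was inside the gene with its midpoint 1.72 kb after the start, and ranked 293rd of 1017. A cKO Pol II region, at 89861087 to 89861390, lay 7.93 kb past the far end, closer to the gene She, and ranked 4039th of 4647. No H3K27ac, H3K4me3 or Ser5P region was listed for Il6ra. The promoter window of Il6ra, 250 bases before to 50 after its start, held AGGAAGT, the ETS-type letters searched for Pu.1, 174 bases before the start, but the Pu.1 region began beyond that window, 1.55 kb away.

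Jak1, the kinase shared by these receptors, had 6 regions in cKO lists and 3 in cWT lists (gene at chromosome 4, 101151974 to 101265282). It was in 5 of the 10 lists, of which cKO H3K4me3 and cWT Ser5P came only from the distant set described below. Regions in at least 5 lists were found for 1.53% of protein-coding genes, and at least 9 regions for 1.44%. Jak1 is also long, at 113 kb: 9.44% of protein-coding genes are as long, and the median is 17.2 kb. Its regions fell into a set within the gene and a set well before its start.

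Within Jak1 lay a cKO Ser5P region at 101239391 to 101239721 and a cKO Pol II region at 101240371 to 101240789, 649 bp apart, with midpoints 25.67 and 24.64 kb after the start. The 2 cWT H3K27ac regions were nearer to the start, at 101244453 to 101244749 and at 101254309 to 101255309, the second with 1001 bp the widest of all 34. None of the 4 overlapped another. No listed region overlapped the promoter window of Jak1, the nearest being 9.86 kb away.

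The other set lay 26.94 to 27.65 kb outside Jak1, before its start, inside Gm12796, a gene of a long noncoding RNA, and was given to Jak1 because no protein-coding gene end was nearer. A cKO Ser5P region at 101292225 to 101292879 covered a cKO Pol II region at 101292376 to 101292819, and both overlapped a cKO H3K4me3 region at 101292380 to 101292932. A second cKO H3K4me3 region followed without a gap, at 101292933 to 101293435, with the same deposited signal as the first (15.0). A cWT Ser5P region, at 101292922 to 101293220, lay 42 bp beyond the cKO Ser5P region and over the second H3K4me3 region. Jak1 was thereby the only one of the 7 genes with the same antibody in the lists of both genotypes, and the 2 Ser5P regions were neighbours, not the same bases. The Pol II region ranked 4645th of 4647 in its list and the cWT Ser5P region 120th of 127, both near the bottom.

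Stat3, the transcription factor of the pathway, had 1 region in all 10 lists, in cKO Pu.1 (gene at chromosome 11, 100886806 to 100939594). It lay across the start of the gene, at 100939326 to 100939702, with its midpoint 0.03 kb after the start. It also overlapped Gm46295, a long noncoding RNA gene on the same stretch. Of all 21263 promoter windows of protein-coding genes, each running from 250 bases before a start to 50 after it, 1.07% overlapped a cKO Pu.1 region. The region ranked 745th of 1017 in its list, so it was not among the upper ones. The bases before the Stat3 start are shown because this is the only member promoter under a Pu.1 region (RefSeq, GRCm38.p6, chr11:100939541-100939790, minus strand), with the ETS-type letters AGGAAGT in capitals.
Stat3: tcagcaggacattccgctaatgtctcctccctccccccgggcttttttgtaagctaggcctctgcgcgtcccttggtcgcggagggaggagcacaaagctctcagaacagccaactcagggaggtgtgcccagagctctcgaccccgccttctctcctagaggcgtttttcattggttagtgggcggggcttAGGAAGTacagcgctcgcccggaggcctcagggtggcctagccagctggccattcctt
The capitals begin 58 bases before the start, at 100939592 to 100939598, and lie under the Pu.1 region. These letters, searched on both strands, were in 9.07% of all promoter windows and in 36 of the 227 windows that overlapped a cKO Pu.1 region (15.9%). They contain the GGAA core that Pu.1 shares with other ETS factors, and a match is no evidence of binding.

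The neighbours Stat5b and Stat5a, related transcription factors that share the locus with Stat3, had regions of cWT H3K27ac only. From 10 kb before Stat5b to 10 kb past Stat3 the lists held 5 regions, 1 in a cKO list (the Pu.1 region of Stat3) and 4 in the cWT H3K27ac list. Of these 4, 3 lay within Stat5b, at 100805362 to 100806085, 100814446 to 100814753 and 100850221 to 100850813. None lay in Stat3, and no polymerase region was listed anywhere in this stretch. Over all listed regions, 95.9% of Pu.1 and 10.8% of H3K27ac regions were in cKO lists, so the split by genotype lay in the direction of the whole lists.

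Socs1, the inhibitor of Jak kinases, had 3 regions, all in cKO lists (gene at chromosome 16, 10783808 to 10785536). All 3 lay at the start of this short gene (1.73 kb; 10.6% of protein-coding genes are as short). The cKO Ser5P regions, at 10785223 to 10785565 and 10785566 to 10785866, met without a gap and had the same deposited signal (13.4). The cKO Pol II region, at 10785541 to 10785871, covered the second of them whole and 25 bp of the first. Of all promoter windows 8.66% overlapped a cKO Pol II region and 12% a cKO Ser5P region.

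The Socs1 regions also stood higher in the cKO Ser5P and Pol II lists than those of any other of the 7 genes. The first Ser5P region ranked 380th of 6163 and had the smallest deposited p of the 34, at 0.182. It was also the only one of the 34 whose deposited name holds the word primary, as 4.05% of all regions do. The Pol II region ranked 456th of 4647. The bases before the Socs1 start are shown because the cKO Ser5P regions cover all of them and the cKO Pol II region nearly all (RefSeq, GRCm38.p6, chr16:10785537-10785786, minus strand), with the letters AANNGAAA, found in sites of interferon regulatory factors, in capitals.
Socs1: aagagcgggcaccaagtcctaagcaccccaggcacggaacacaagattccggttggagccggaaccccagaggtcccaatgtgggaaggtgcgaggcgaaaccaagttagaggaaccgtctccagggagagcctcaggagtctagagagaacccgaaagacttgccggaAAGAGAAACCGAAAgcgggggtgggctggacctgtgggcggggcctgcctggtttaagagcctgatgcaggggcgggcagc
The capitals are 2 matches that overlap by 2 bases, beginning 81 and 75 bases before the start. These letters, on both strands, were in 21.8% of all promoter windows and in none of the other 4 members' windows. Of the windows that overlapped a cKO Ser5P region, 15.6% held them. GGGCGG, the GC box, came 46 and 11 bases before the Socs1 start, and was also in the windows of Jak1, Stat3 and Socs3. It was in 46.2% of all windows and in 73.7% of those that overlapped a cKO Ser5P region. The STAT letters TTCNNNGAA were not in this window.

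Socs3, the Stat3 target that inhibits Il6st, had 4 regions in cKO lists and 1 in a cWT list (gene at chromosome 11, 117966079 to 117970336). None of them lay within the gene, and all 5 lay beyond its 3′ end. A cKO Ser5P region was 2.28 kb beyond, at 117963386 to 117963802. At 16.26 kb beyond, a cKO Ser5P region, at 117949540 to 117949819, covered a cWT H3K27ac region whole, at 117949555 to 117949809. At 18.94 kb beyond, a cKO Ser5P region, at 117946765 to 117947134, covered a cKO Pol II region whole, at 117946782 to 117947123. The 5 regions ranked between 34.2% and 51.1% of the way down their lists, all near the middle.

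The promoter window of Socs3 held TTCTTAGAA, a match to the STAT letters TTCNNNGAA, 154 bases before the start, as 7.69% of all windows hold such a match. No listed region lay over it, and the nearest was 5.52 kb away. Socs1 and Socs3 thus differed in where their cKO polymerase regions lay: on the start at Socs1, and 2.28 to 18.96 kb beyond the 3′ end at Socs3. Assignment by distance alone does not show that a distant region acts on Socs3.

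Of the 34 regions 17 overlapped a listed region of another antibody, as did 44% of all listed regions. Of the 9 cKO Pol II regions 4 overlapped a cKO Ser5P region (44.4%, against 51.2% of that whole list), and of the 13 cKO Ser5P regions 5 overlapped a cKO Pol II region (38.5%, against 38.8%). Of the 6 cWT H3K27ac regions 1 overlapped a cKO Ser5P region, at Socs3, and 1 a cKO Pol II region, at Il10ra (16.7% each, against 10.3% and 9.96% of that list). By gene, Il10ra, Il10rb, Jak1 and Socs3 had both cWT H3K27ac and a cKO polymerase region (4 of 7, against 15.9% of all genes). Il10ra, Jak1, Socs1 and Socs3 had both cKO Pol II and cKO Ser5P (4 of 7, against 15.7%). Jak1 alone had H3K4me3.

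**Figure D5:**
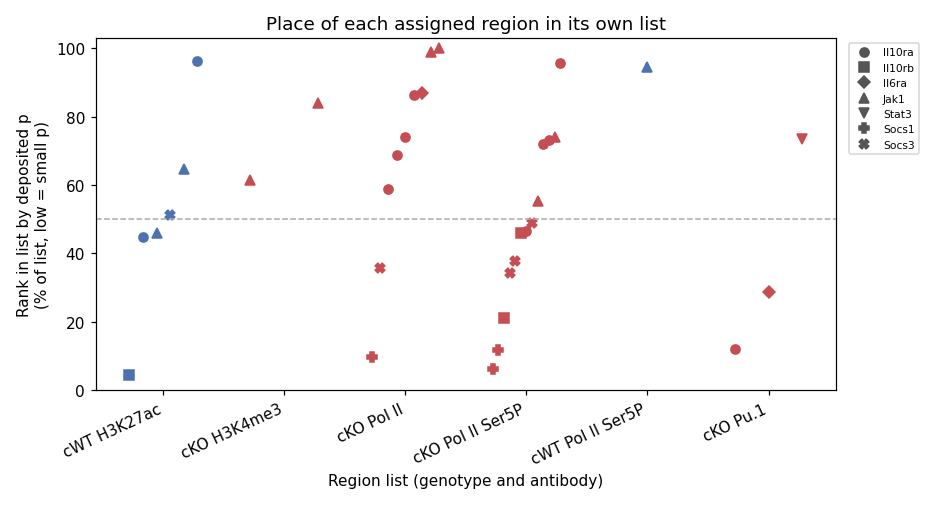
Place of each of the 34 regions in its own list, ranked by deposited p (y axis, percent of the list, low is a small p; dashed line: the middle of the list); columns are lists, red for cKO and blue for cWT, and marker shapes are genes. The Socs1 regions lie between 6.17 and 11.9%, and 8 of the 9 Jak1 regions lie past the middle of their lists.

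None of the 34 regions had a deposited p under 0.05, nor did most of the series, where 169 of 22399 did. The 34 values ran between 0.182 and 0.979 with a median of 0.82, and 15 of the 34 stood above the middle of their list. No label or header says what this p tests, so it ranks regions only. Widths ran between 190 and 1001 bp with a median of 341 bp, against 379 bp over all regions.

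Beside the 7, 63 other genes were listed by role: parts of the pathway, and 16 genes that respond to IL-10 or Stat3 in macrophages. Of the 63, 49 had a region in some list (49.6% of all protein-coding genes), 15 of them among these 16. The cKO Ser5P list held 34 of the 63 (27.9% of all genes), the cKO Pol II list 27 (22.4%), the cKO Pu.1 list 12 (4.96%) and the cWT H3K27ac list 29 (26.1%). The cWT H3K4me3 list held 5 (5.62%), and the cWT Pol II (2.16%), cKO H3K27ac (4.31%) and cKO H3K4me3 (8.47%) lists 4 each. The cWT Ser5P list held 1 (0.722%) and the cWT Pu.1 list 0 (0.187%). These genes were picked as parts or response genes of the pathway with earlier results known, and many are expressed in macrophages, so the counts are a description.

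Of the 11 ligands 4 had a region in some list, against 49.6% of all genes, and Il10 had none. Il6, Lif and Il27 had 1 cWT H3K27ac region each and no other, and Osm had 1 cKO region each of H3K27ac and Ser5P. Of 13 other receptor chains, 8 had a cKO polymerase region, of Pol II or Ser5P, against 34.5% of all genes. Among the 8 were Ifnar1, Ifnar2 and Ifngr2, the neighbours of Il10rb in 1 locus described above. Il6st, the signalling chain of the IL-6 family, had 5 regions in cKO lists and 2 in cWT lists and was in 5 lists. Of these 1 was in the cKO H3K27ac list, which held none of the 7 genes and 4.31% of all genes. The 3 other Jak kinases, Jak2, Jak3 and Tyk2, all had regions of both cKO Pol II and cKO Ser5P, as Jak1 did, against 15.7% of all genes.

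Of the 6 other STAT genes 0 had a Pol II region in either genotype, against 22.4% of all genes for cKO and 2.16% for cWT. The cKO Ser5P list held 3 of the 6 (27.9% of all genes), and 6 genes are too few to set apart from these shares. Stat6, activated by IL-4, had 3 cKO regions (2 Ser5P and 1 Pu.1), and Stat4, activated by IL-12, had 1 cKO Ser5P and 1 cWT H3K27ac region. Of 14 other inhibitors 12 had a region (49.6% of all genes), 10 in the cKO Ser5P list (27.9%) and 9 in the cKO Pol II list (22.4%). Socs6 led with 9, 3 each in cKO Pol II, cKO Ser5P and cWT H3K27ac, the same lists that held Socs3. Pias1 and Pias4, which restrain STAT proteins, had 7 and 6, and the phosphatase gene Ptpn6 had 6. Socs2 and Socs5 had none.

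Genes with the pattern most like each member were found by the set of lists they were in and the summed difference in region counts over the 10 lists. Il10ra shared its set of 4 lists with 142 genes (0.649%), of which Actb, Batf3 and Dennd4a differed by 1 region each. Jak1 shared its set of 5, which counts the distant regions inside Gm12796, with 2 genes, Fgd3 and Rreb1, which differed by 3 and 8 regions. Il10rb, Socs1 and Socs3 had common sets, shared with 593, 1092 and 910 genes. Several genes matched every count, Aamdc and Akap8l among them for Il10rb, Abcb8 for Socs1, and Atp13a3, Atp6v1e1 and Atxn7l2 for Socs3.

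Of the marker genes of the labelled cell type, microglia, 9 of 10 had a region in some list, against 4 of 7 markers of border macrophages and monocytes, 3 of 4 of endothelial cells, 3 of 5 each of astrocytes and oligodendrocytes, 1 of 6 of neurons and 0 of 4 of T cells. Of all protein-coding genes 49.6% had one, so the counts for several other cell types lay at or above that share. Lists of genotype-specific regions do not show how much of each cell type the libraries held, and the part of other cells in the regions above was not tested.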

How the data were processed

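CUT&Tag libraries were made from about 100000 sorted microglia per genotype, per the labels' protocols. Under the antibodies, 1 catalogue number stands for both polymerase forms and H3K27ac and another for H3K4me3 and Pu.1, and the series text mentions 4 mice beside 3 replicates. Whether each replicate is a different mouse is not labelled. HOMER 4.11, bedtools 2.30.0, MACS2 2.2.7.1, Bowtie2 2.4.4 and the builds GRCm38 and mm10 are named per the submitters' processing notes. The sources used here do not give the pooling of replicates or the rule that made a region specific to a genotype.

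The authors deposited 10 region lists. Each deposited region has a score, which was not used, a signal on an unstated scale, compared only within a list, and a p-value, which ranked regions within lists, beside an adjusted one that was not used. Positions are on mm10, counted from 1. Gene spans came from a RefSeq table of GRCm38.p6, without strand or exons, and promoter and microRNA sequences from RefSeq tables of the same build, where 5 of the 7 genes matched a promoter. Exon, intron and UTR positions were not annotated.

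The 7 genes, the pathway lists and the marker lists were chosen with earlier results of these data known. Named were all 7 genes, neighbours nearest to an assigned region, up to 4 pathway genes per role with the most regions, up to 3 genes of like pattern (ties by symbol) for genes with at least 3 regions, and promoters within 1 kb of a region. Stat5a, Socs2, Socs5, Il10, Il1rn, Hmox1, Nfil3, Cebpd and Zfp36 were named after their values were seen. A gene that this rule names is not reported here. Overlap meant at least 1 bp. Assignment and overlap were tested on simulated regions. Alternatives changed the assignment, merged regions within 1 kb, left out regions under 300 bp, kept the regions above the middle of each list by p, or with p under 0.05, and changed the overlap. The software was scipy 1.17.1, pandas 2.3.3, numpy 2.4.6 and matplotlib 3.10.9 in Python 3.11.15.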

Additional observations from a re-analysis of the deposited data

How the results depend on the processing

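No paired analysis was possible because the lists hold no value per replicate, and for the same reason leaving out a replicate was not run. With a deposited p under 0.05, 0 of the 34 regions remained, so that alternative gave no value. Of 124 values under the other alternatives 88 stayed within the counting interval of the share or within 1.5 times the count. The cause of the moves below was not tested, beyond the smaller number of regions that each setting keeps.

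The cKO share of Ser5P regions was 100% in place of 92.9% with gene spans alone, with spans extended by 10 kb alone, with the nearest end within 10 kb, with regions of at least 300 bp and above the middle of each list by p, since the single cWT region (Jak1) drops out. In these 5 settings the cWT Ser5P list held 0 regions and 0 genes. The cKO H3K4me3 list held 0 regions and 0 genes in the same settings except the 300 bp one, and 1 region after merging. With spans alone the cKO Pol II list held 1 region at 1 gene in place of 9 at 5, the cKO Ser5P list held 4 regions in place of 13, and 1 region in place of 17 overlapped another antibody. Above the middle of each list, the cWT H3K27ac list held 3 regions in place of 6, cKO Pol II 2 at 2 genes, and cKO Ser5P 8, and 7 regions overlapped another antibody. Regions of at least 300 bp left 8 for cKO Ser5P. With spans extended by 10 kb alone, or the nearest end within 10 kb, 8 regions overlapped another antibody. Under every alternative that kept a region, the H3K27ac regions were all in the cWT list and the Pol II and Pu.1 regions all in the cKO lists. Apart from merging, the alternatives to the assignment and the filters could only leave out regions of the main set. That set already held 1 genotype for each of these antibodies, so this outcome was fixed in advance and is no sign of stability.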

Other observations

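Of 16 genes known to respond to IL-10 or Stat3 in macrophages 15 had a region in some list, against 49.6% of all protein-coding genes, and Il1rn, which encodes the IL-1 receptor antagonist, had none. Dusp1, a phosphatase that ends MAP kinase signalling, led with 7 regions in cKO lists and 3 in cWT lists, over 6 lists. Il4ra, a receptor chain for IL-4, had 3 regions in cKO lists and 3 in the cWT H3K27ac list, and Bcl6, a repressor, had 3 and 2. Junb, an AP-1 factor, had 3 and 1. Its H3K4me3 regions stood in the lists of both genotypes, 1 in each, as did those of Dusp1 and Zfp36. Of the 16 genes 13 had a cKO polymerase region (34.5% of all genes) and 3 (Hmox1, Nfil3 and Cebpd) a cWT Pol II region (2.16% of all genes).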
